A study of Mus musculus with 14 samples.

Results

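miR-21 was followed through 4 sorted cell populations of the mouse mammary gland. It is the 1 probe named mmu-miR-21, without an asterisk, among 584 miRNA probes with deposited normalized values, and it lies on the first of 2 PCR array plates, plate A, which holds 375 of them. All cells came from untreated FVB/N mice, an inbred strain, and were separated by flow cytometry on the surface proteins CD29, CD24 and CD61. No allele or agent was added, and ages were not given in the sources used here. The MaSC/basal fraction (CD29hi CD24+, holding basal or myoepithelial cells together with the mammary stem cells) had 4 samples, the luminal progenitor fraction (CD29lo CD24+ CD61+) had 3, the mature luminal fraction (CD29lo CD24+ CD61-) had 3, and the stroma (CD29- CD24-) had 4. Each sample was RNA of pooled mice, and the labels number the pools: pools 1, 2 and 3 each gave 1 sample of every epithelial population, pool 4 gave only MaSC/basal 4, and all 4 stromal samples came from pool 5.

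miRNAs are short RNAs that lead a silencing complex to messenger RNAs, mostly through pairing of the seed, the bases near the 5′ end of the miRNA. miR-21 is among the miRNAs most often found raised in solid tumours, breast cancer included, and a known target is Pdcd4, an inhibitor of translation. It is also known from activated fibroblasts in scarring heart and lung, so both the epithelium and the stroma of a gland are tissues in which it has been studied.

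The sequences show what the assay of plate A was made to read and the close relatives it could meet. The name in the files corresponds to miR-21a-5p in RefSeq. The opposite strand of its precursor, miR-21*, corresponds to miR-21a-3p and has a probe on the second plate, plate B, whereas the paralogs miR-21b and miR-21c had no probe of their own. Mature RNAs are given 5′ to 3′ from RefSeq (GRCm38.p6), with the seed, bases 2 to 8, in capitals.
mmu-miR-21a-5p: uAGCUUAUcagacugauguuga
mmu-miR-21c: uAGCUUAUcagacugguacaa
mmu-miR-21b: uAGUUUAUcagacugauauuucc
mmu-miR-21a-3p: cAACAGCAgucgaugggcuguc

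miR-21a-5p is encoded on the minus strand at chr11:86584120-86584141, within the Mir21a hairpin at chr11:86584067-86584158, and the hairpin lies 209 bases inside the downstream end of Vmp1, a gene on the same strand. miR-21c carries the same seed as miR-21a-5p. Counted from 1 at the 5′ end with the base of miR-21a-5p first, miR-21c differed by A16G, G18A, U19C, U20A and G21A over 21 positions. miR-21b differed by C4U, G18A, G21U and A22C over 22 positions, the first of which lies in the seed. Whether the assay also reads either paralog was not tested. miR-590-5p, another miRNA known to carry the seed of miR-21, had a probe on plate A and was undetected in 13 of the 14 samples.

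Measurements were cycle thresholds (Ct), the PCR cycle at which the signal of an assay passed its limit, so 1 cycle less stands for about a doubling of the template. A Ct of 40 was the value of an undetected reaction. The deposited normalized value is on a log2 scale on which more is higher, and a fold change below assumes doubling at every cycle. Of the plate A probes, 256 to 279 were detected in an epithelial sample and 287 to 292 in a stromal one. The 8 epithelial markers, the miR-200 family and the miR-183 cluster, were detected in all populations, with a summed normalized level of 26.85 to 28.38 in the 9 epithelial samples used below and 20.66 to 21.61 in stroma. The 4 mesenchymal markers (miR-199a-3p, miR-199a-5p, miR-214 and miR-10b) were at 26.40 to 26.83 in stroma and 19.06 to 20.01 in epithelium.

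The library labelled MaSC/basal 4 stood apart from its label. Over the 234 plate A probes detected in all 13 other samples, its median correlation was 0.87 with the other MaSC/basal samples, 0.95 with luminal progenitors and 0.96 with mature luminal samples. MaSC/basal 1 to 3 had 0.97 to 0.98 with each other and 0.87 to 0.89 with luminal samples. The summed level of the basal markers miR-205, miR-143 and miR-145 was 22.22 in this library and 28.33 to 29.46 in the other MaSC/basal samples, and that of the luminal markers miR-375 and miR-148a was 21.89 against 17.94 to 18.29. It is not among the mouse samples that the study plotted, and the comparisons below use the other 13 samples, with its own value given separately.

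miR-21 was detected in all 14 samples, and its level fell into a high pair and a low pair of populations. Mature luminal cells and stroma were high, with means of 23.82 ± 0.86 (SD, n = 3) and 23.89 ± 0.24 (SD, n = 4) on the normalized log2 scale. MaSC/basal cells and luminal progenitors were low, with 21.45 ± 0.46 (SD, n = 3) and 20.75 ± 0.27 (SD, n = 3). In bulk RNA of a sorted population, a larger share of cells with miR-21 and more miR-21 per cell cannot be told apart.

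In luminal progenitors the normalized values of samples 1 to 3 were 20.88, 20.94 and 20.43, at Ct 19.6, 19.9 and 20.8. In MaSC/basal cells they were 20.99, 21.90 and 21.45, at Ct 20.2, 19.7 and 18.5. The highest progenitor sample lay just under the lowest MaSC/basal sample, so the low populations did not overlap but nearly touched.

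In mature luminal cells the normalized values were 23.89, 24.64 and 22.92, at Ct 16.1, 15.8 and 17.0. In stroma samples 1 to 4 gave 24.24, 23.79, 23.71 and 23.83, at Ct 16.5, 16.6, 15.8 and 16.3. All 4 stromal samples lay within the range of the mature luminal samples, of which the third was the lowest and still stood above every MaSC/basal and progenitor sample. The library labelled MaSC/basal 4 had 22.33, at Ct 18.3, between the low and the high populations.

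**Figure D1:**
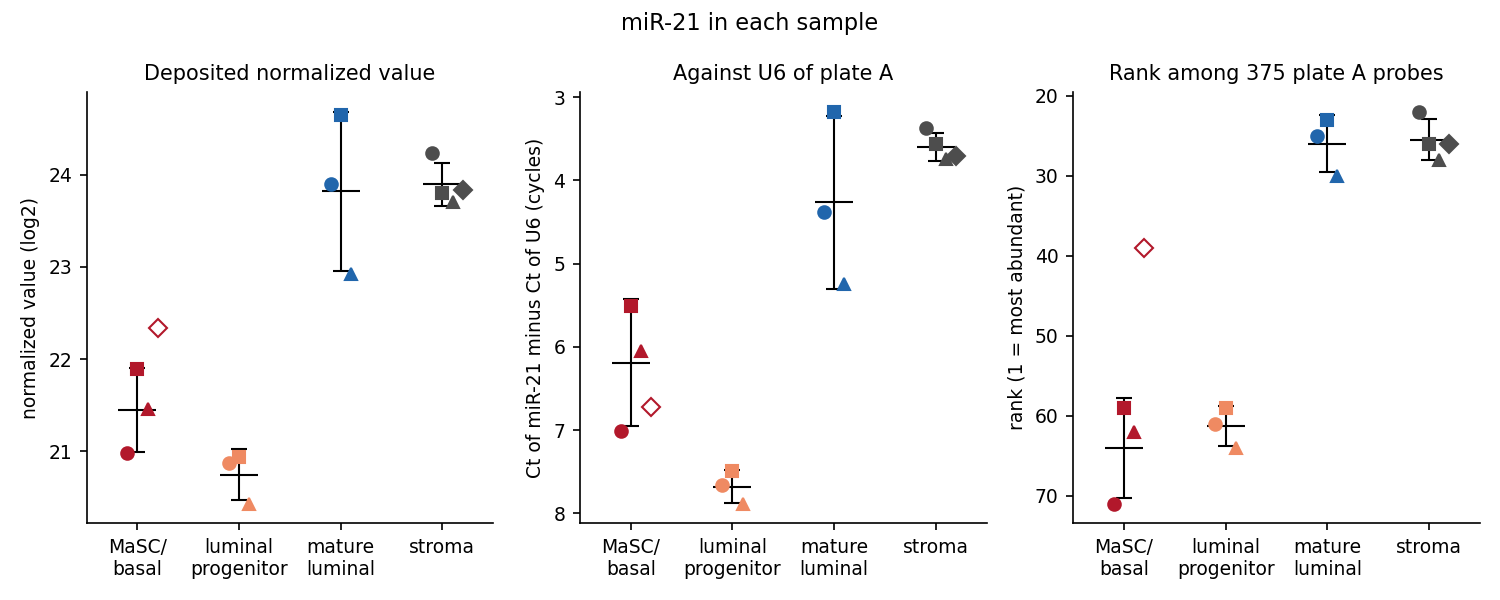
miR-21 in each sample of the 4 populations, as the deposited normalized value (log2), as the Ct of miR-21 minus that of U6 (cycles, axis turned so that more is up) and as the rank among 375 plate A probes (axis turned). Circles, squares, triangles and diamonds are samples 1, 2, 3 and 4, black bars are the mean ± SD of 3 or 4 samples, and the open diamond is the library labelled MaSC/basal 4, which is in no mean; mature luminal and stromal samples lie above all others in each panel.

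The spread of miR-21 among replicates was widest in mature luminal cells. There the SD of miR-21, 0.86, was above the median SD of 0.41 over the 304 probes detected in all 13 samples and larger than that of 84.5% of them. In the other populations it was near the median, with 0.46 against 0.40 in MaSC/basal cells, 0.27 against 0.30 in progenitors and 0.24 against 0.23 in stroma. The stromal spread is that of 4 samples of 1 pool.

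The first question was how the level differed along the luminal lineage. miR-21 was 8.39-fold higher in mature luminal cells than in luminal progenitors, a difference of 3.07 on the log2 scale (SE 0.39, 95% interval 2.20 to 3.93, adjusted p = 0.00049, limma). It was higher in mature luminal cells in all 3 pools, by 3.02, 3.71 and 2.48. Between these populations 22% of the 459 probes tested were called, in either direction, and 26% of the 300 on plate A. Among the 241 tested plate A probes detected in every sample of both populations, this was the 9th largest difference.

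miR-21 was also 5.18-fold higher in mature luminal than in MaSC/basal cells, by 2.37 on the log2 scale (SE 0.39, 95% interval 1.51 to 3.24, adjusted p = 0.00053, limma). The differences within pools 1, 2 and 3 were 2.91, 2.75 and 1.47, all in the same direction. Here 35.9% of probes were called, and 44.3% of those on plate A. Against the mean of both other epithelial populations, mature luminal cells were higher by 2.72 (SE 0.34, adjusted p = 0.00015). In that comparison 31.2% of probes were called, and 37.7% of those on plate A.

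Luminal progenitors and MaSC/basal cells differed less. The progenitor mean was lower by 0.70 on the log2 scale (difference -0.70, SE 0.39), with a 95% interval from -1.56 to 0.17 and an adjusted p of 0.21. This comparison called 36.6% of probes, and 47.3% of those on plate A. The normalized values were lower in progenitors in all 3 pools, by -0.11, -0.96 and -1.02. The Ct itself had no common direction, being -0.61 cycles in pool 1 (more miR-21 in progenitors) and 0.19 and 2.35 cycles in pools 2 and 3 (less). With U6 alone as the reference the difference was -1.49 and passed the threshold (adjusted p = 0.032), whereas with centring on the plate A median it was -0.11 (adjusted p = 0.79).

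MaSC/basal cells against the mean of both luminal populations gave a difference of -0.84 (SE 0.34, 95% interval -1.59 to -0.09, adjusted p = 0.075), where 40.3% of probes were called, and 50.3% of those on plate A. The MaSC/basal samples lay between the luminal ones, above every progenitor and below every mature luminal sample, so this average joins populations on both sides of them. Without mature luminal 3 the difference was -1.06 and passed (adjusted p = 0.0076). It also passed with mouse pool as a random block (adjusted p = 0.041), but not when the epithelial samples were fitted with a fixed term for pool (adjusted p = 0.068). With U6 alone as the reference it was -0.22 (adjusted p = 0.70). The F-test over the 3 epithelial populations gave F = 33.9 (adjusted p = 0.00016), the 76th largest of 459 probes, of which 44.4% were called, and the 68th of the 300 on plate A, of which 55% were called.

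Stroma was then set against each epithelial population. miR-21 was 8.83-fold higher in stroma than in luminal progenitors (3.14 on the log2 scale, SE 0.37, adjusted p = 1.09e-05) and 5.45-fold higher than in MaSC/basal cells (2.45, SE 0.37, adjusted p = 9.13e-05), without overlap of samples in either case. Most probes differed between stroma and these populations, 80% and 76.9% of those tested, and 74.7% and 70.7% of the plate A probes. Among the plate A probes that were detected throughout both populations, the differences of miR-21 ranked 73rd of 234 and 82nd of 246 in size.

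Between stroma and mature luminal cells no difference passed the test. The stromal mean was higher by 0.07 on the log2 scale (SE 0.37, adjusted p = 0.86), with a 95% interval from -0.74 to 0.88, which is 0.60-fold to 1.84-fold. Here 78.2% of the probes were called, and 72.7% of those on plate A. Of the 244 plate A probes detected in every one of these samples, 236 differed more than miR-21. The direction depended on the scaling, at 0.67 with U6 alone (adjusted p = 0.22), -0.02 without normalization (adjusted p = 0.97) and -0.97 with centring on the plate A median, which passed the threshold (adjusted p = 0.0074).

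Against the mean of the 3 epithelial populations, stroma was higher by 1.89 (SE 0.29, 3.70-fold, adjusted p = 9.32e-05) in a comparison that called 81.7% of probes, and 76.7% of those on plate A. The groups overlapped, since the stromal samples lay within the range of the mature luminal ones. Every stromal sample came from a pool that gave no epithelium, so pool and cell type cannot be told apart in the comparisons with stroma, and their p-values hold the spread of 1 stromal pool only.

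**Figure D2:**
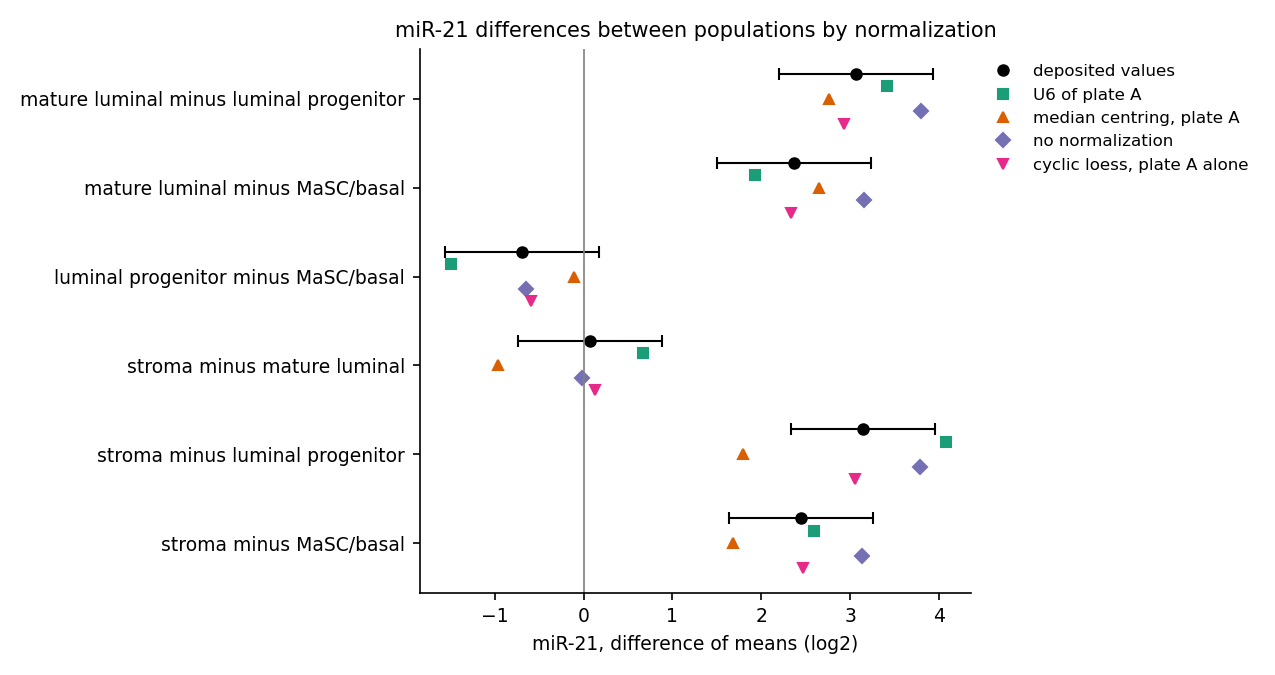
Differences of miR-21 between pairs of populations on the log2 scale under 5 scalings, 13 samples; black points with bars are the deposited values with the 95% interval of the limma fit, and the other symbols have no bar. The 4 differences between a high and a low population lie between 1.68 and 4.08 under each of these 5 scalings, whereas stroma minus mature luminal lies on both sides of 0. Scaling to the other control RNAs described below, on which the place of stroma moved, is not shown.

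The scalings also moved the plate A probes as a body, so miR-21 was set against their median. The median difference between mature luminal cells and progenitors was 0.08 in the deposited values and -0.30 to 0.74 under the other scalings, and miR-21 lay 2.85 to 3.07 above it throughout. Against MaSC/basal cells it lay 2.47 to 2.74 above the median. For stroma against progenitors the median was -0.05 in the deposited values and -0.37 to 1.92 under the others, and miR-21 lay 2.15 to 3.19 above it. For stroma against mature luminal cells miR-21 lay from -0.66 to 0.44 relative to the median, on both sides of it.

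**Figure D3:**
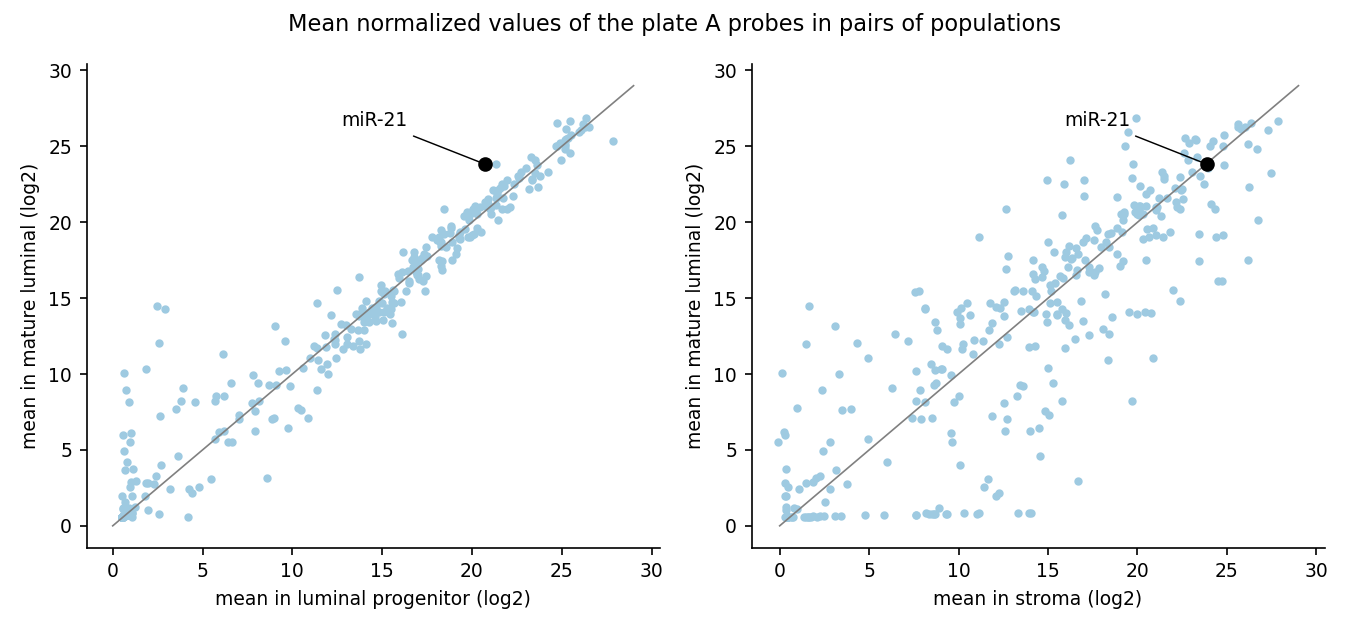
Mean normalized values (log2) of the 375 plate A probes, each a point, in mature luminal cells against luminal progenitors (left) and against stroma (right); the line marks equal means and the black point is miR-21. miR-21 lies 3.07 above the line on the left, where most probes follow it, and 0.07 off the line on the right, where probes scatter widely.

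Small nucleolar and other control RNAs on plate A gave a view without the loess normalization. Relative to U6, the spliceosomal RNA that carried most weight in that normalization, miR-21 came 7.49 to 7.88 cycles later in luminal progenitors, 5.51 to 7.01 in MaSC/basal cells, 3.17 to 5.24 in mature luminal cells and 3.38 to 3.75 in stroma. The 3 epithelial populations were separated completely on this measure. An exact permutation test of the F ratio, the spread between populations over that within them, gave p = 0.00357. This is the smallest that its 280 arrangements allow (0.0214 after Benjamini-Hochberg adjustment over the 6 exact tests made). These arrangements exchange samples across mouse pools. With exchange only within pools, an alternative chosen after seeing the data, the exact p was 0.0278, the smallest that 36 arrangements allow (adjusted 0.13). Stroma and mature luminal cells overlapped (exact permutation p = 0.286). The Ct of miR-21 with no control gave an exact p of 0.0179 among the epithelial populations (adjusted 0.05), and 0.0833 within pools (adjusted 0.167).

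Within the epithelium the other controls kept mature luminal cells highest. Relative to snoRNA135, the mean Ct of miR-21 was 1.19 cycles in progenitors, -0.17 in MaSC/basal cells and -1.70 in mature luminal cells. Relative to snoRNA202 these means were 4.76, 2.69 and -0.55, relative to U87 -1.47, -3.22 and -6.41, and relative to Y1 -7.61, -8.18 and -12.0. Of these 3 populations progenitors had the least miR-21 on every control.

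The place of stroma moved with the control. Its mean was -0.82 cycles relative to snoRNA135, 2.40 to snoRNA202, -5.45 to U87 and -5.04 to Y1. It was therefore below mature luminal cells in miR-21 on these 4 controls and above them on U6. On snoRNA202 the stromal samples overlapped those of MaSC/basal cells, at 1.52 to 3.11 cycles against 1.54 to 3.56. They also overlapped on snoRNA135, at -1.46 to -0.17 against -0.41 to 0.2. On U87 they did not, at -6.11 to -4.67 against -3.97 to -1.96. On Y1 stroma was below both low populations, and the Ct of Y1 itself was 20.9 to 21.9 in stroma and 26.9 to 28.6 in epithelium.

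The rank of miR-21 within each sample was taken on the deposited normalized values. Its means were 61.33 in progenitors, 64 in MaSC/basal cells, 26 in mature luminal cells and 25.5 in stroma. Ranked by Ct, with no scaling between samples, the means were 59.67, 64, 25.67 and 25.25 in the same order. Ranks compare assays of unknown efficiency, so a rank describes the order of signals on plate A and not of molecules. miR-21 stood at 61, 59 and 64 of 375 in luminal progenitors 1 to 3 and at 71, 59 and 62 in MaSC/basal 1 to 3, so these populations overlapped in rank.

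In mature luminal cells the ranks were 25, 23 and 30, and in stroma 22, 26, 28 and 26. Every one of these samples placed miR-21 in the top 10.9% of its detected plate A probes, against 22.2% to 26.8% in progenitors and MaSC/basal cells. Among the epithelial populations the rank gave an exact permutation p of 0.025 for the F ratio (smallest possible 0.00357, adjusted 0.05), and of 0.111 with exchange only within pools (adjusted 0.167). Stroma against epithelium gave an exact p of 0.0434 (smallest possible 0.0014, adjusted 0.065), and stroma against mature luminal cells an exact p of 0.886 (smallest possible 0.0286). The library labelled MaSC/basal 4 had rank 39.

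By population mean, miR-21 ranked 65th in MaSC/basal cells, between miR-744 and miR-27a, and 62nd in luminal progenitors, between miR-328 and miR-27a. It ranked 26th in mature luminal cells, between miR-184 and miR-222, and 26th in stroma, between let-7d and miR-26b. These neighbours lay from -0.18 to 0.15 of miR-21 on the log2 scale, less than the replicate SD of miR-21 in the population concerned, so the neighbouring ranks are not separated. In no population was miR-21 among the 5 most abundant signals.

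Those leading signals differed by population. They were miR-145, miR-24, miR-222, miR-16 and miR-146b in MaSC/basal cells, where miR-145, known from smooth muscle and myoepithelium, stood 7.15 above miR-21. They were miR-146b, miR-30c, miR-200c, miR-30b and miR-191 in progenitors, where miR-146b stood 7.08 above it. In mature luminal cells miR-200c, miR-24, miR-16, miR-191 and miR-30b led, and the epithelial miR-200c stood 3.02 above miR-21. In stroma miR-24, miR-195, let-7c, miR-125b-5p and miR-26a led, with miR-24 3.94 above it. The leading signal was thus nearer to miR-21 in the high populations than in the low ones.

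**Figure D4:**
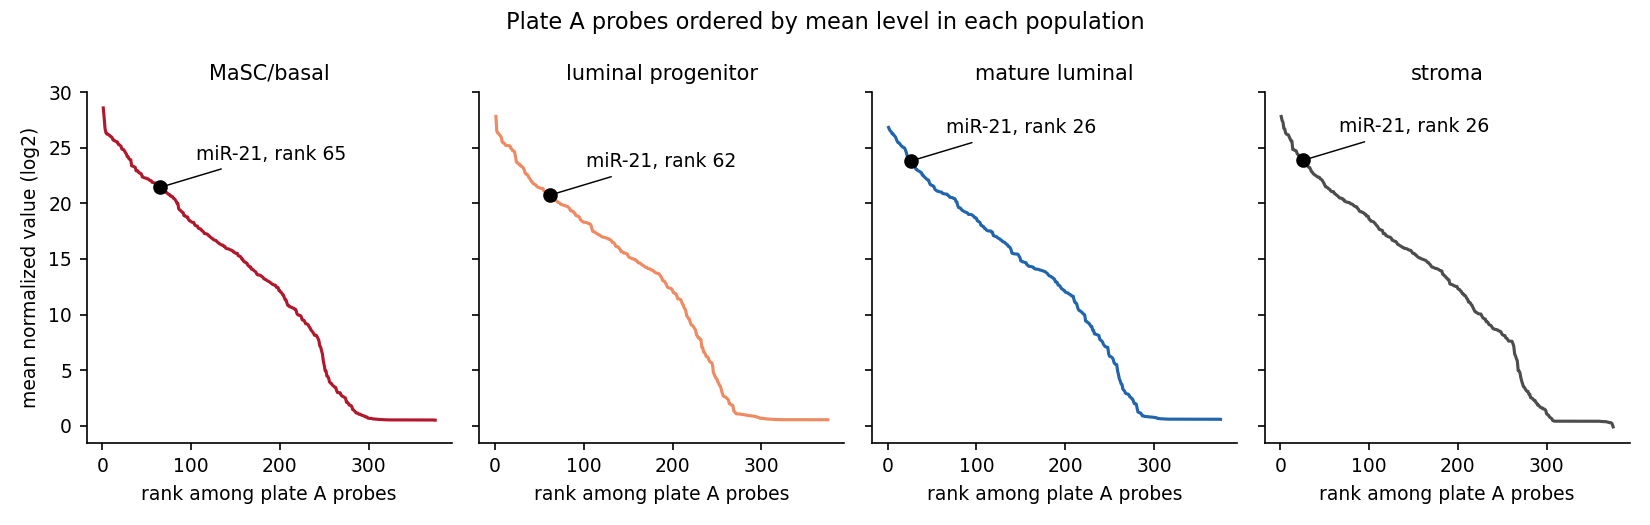
Mean normalized value (log2) of the 375 plate A probes against their rank in each population, with miR-21 marked. It sits at rank 65 and 62 on the curves of MaSC/basal cells and luminal progenitors and at rank 26 on those of mature luminal cells and stroma.

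The passenger strand miR-21* was read on plate B. It was undetected in all 10 epithelial samples and had Ct 23.3, 23.4, 23.0 and 23.4 in stroma, normalized values of 16.01, 15.86, 15.47 and 15.75. Mature luminal samples, whose miR-21 values spanned those of stroma, thus gave no signal for it. The plate B copies of the control assays snoRNA135 and snoRNA202 split in the same way, whereas the mean Ct of the plate B copy of U6 was 11.7 in epithelium and 12.4 in stroma. snoRNA135 was undetected in epithelium and at a mean Ct of 16.3 in stroma, and snoRNA202 was at 33.7 and 13.7, while plate A had them at 18.8 and 17.1 and at 16.3 and 13.9. The part of this plate difference in the values of miR-21* was not tested, and no difference in level is read from them.

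The miRNAs that were most like miR-21 over the 13 samples were sought among the other 233 plate A probes detected in all of them. The highest Pearson correlations were with let-7d (r = 0.87), miR-132 (0.85), miR-15a (0.84), miR-10b (0.81), miR-328 (0.78) and miR-185 (0.75). The lowest were with miR-146b (-0.89), miR-467d (-0.87) and miR-685 (-0.81). These are descriptions: the points are 13 samples that fall into few populations and share pools and a normalization. The mature forms of 4 of the 6 were matched in the RefSeq table used here and are shown to set their seeds beside that of miR-21.
mmu-let-7d-5p: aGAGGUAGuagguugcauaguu
mmu-miR-132-3p: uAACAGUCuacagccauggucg
mmu-miR-15a-5p: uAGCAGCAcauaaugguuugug
mmu-miR-10b-5p: uACCCUGUagaaccgaauuugug

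None of the 4 has the seed of miR-21 or of another of the 4. The means of each spanned less than the 3.14 of miR-21. let-7d, of the family that restrains proliferation, had a mean of 23.00 in progenitors, 23.33 in MaSC/basal cells, 23.58 in mature luminal cells and 23.92 in stroma, a range of under 1 on the log2 scale. miR-15a, known to target the survival factor Bcl2, rose from 17.46 in progenitors to 18.40 in mature luminal cells (difference 0.93, SE 0.18, adjusted p = 0.0040) and stood at 18.40 in stroma. It was lowest in MaSC/basal cells, at 16.69, so that progenitors were higher than MaSC/basal cells by 0.77 (SE 0.18, adjusted p = 0.0045), the opposite sign to miR-21 (-0.70). miR-10b, known from breast cancer metastasis and from fibroblasts, was 1.26 higher in mature luminal cells than in progenitors (SE 0.25, adjusted p = 0.0052) and higher in stroma, at 20.65.

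miR-146b, an inhibitor of NF-kB signalling, ran opposite to miR-21. Its mean was 27.83 in progenitors, where miR-21 was lowest, then 26.25 in MaSC/basal cells, 25.32 in mature luminal cells and 24.21 in stroma. It was lower in mature luminal cells than in progenitors by 2.51 (difference -2.51, SE 0.26, adjusted p = 0.00015). The correlation of miR-146b stayed at -0.91 with U6 alone as the reference, whereas those of miR-467d and miR-685 became 0.24 and -0.04.

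In the 9 epithelial samples alone the nearest probes were others. miR-130b (r = 0.95), miR-101a (0.94), miR-183 (0.94), let-7g (0.87), miR-194 and miR-192 led there, and none of the 6 named first remained. miR-183, an epithelial marker, was highest in mature luminal cells like miR-21 but fell to 11.12 in stroma from 19.01 in mature luminal cells, and its correlation over all 13 samples was -0.53. The r of let-7d, miR-132 and miR-15a over the epithelial samples was 0.79, 0.76 and 0.76. Of the 6, Spearman's correlation kept 4 and the U6 reference 2.

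**Figure D5:**
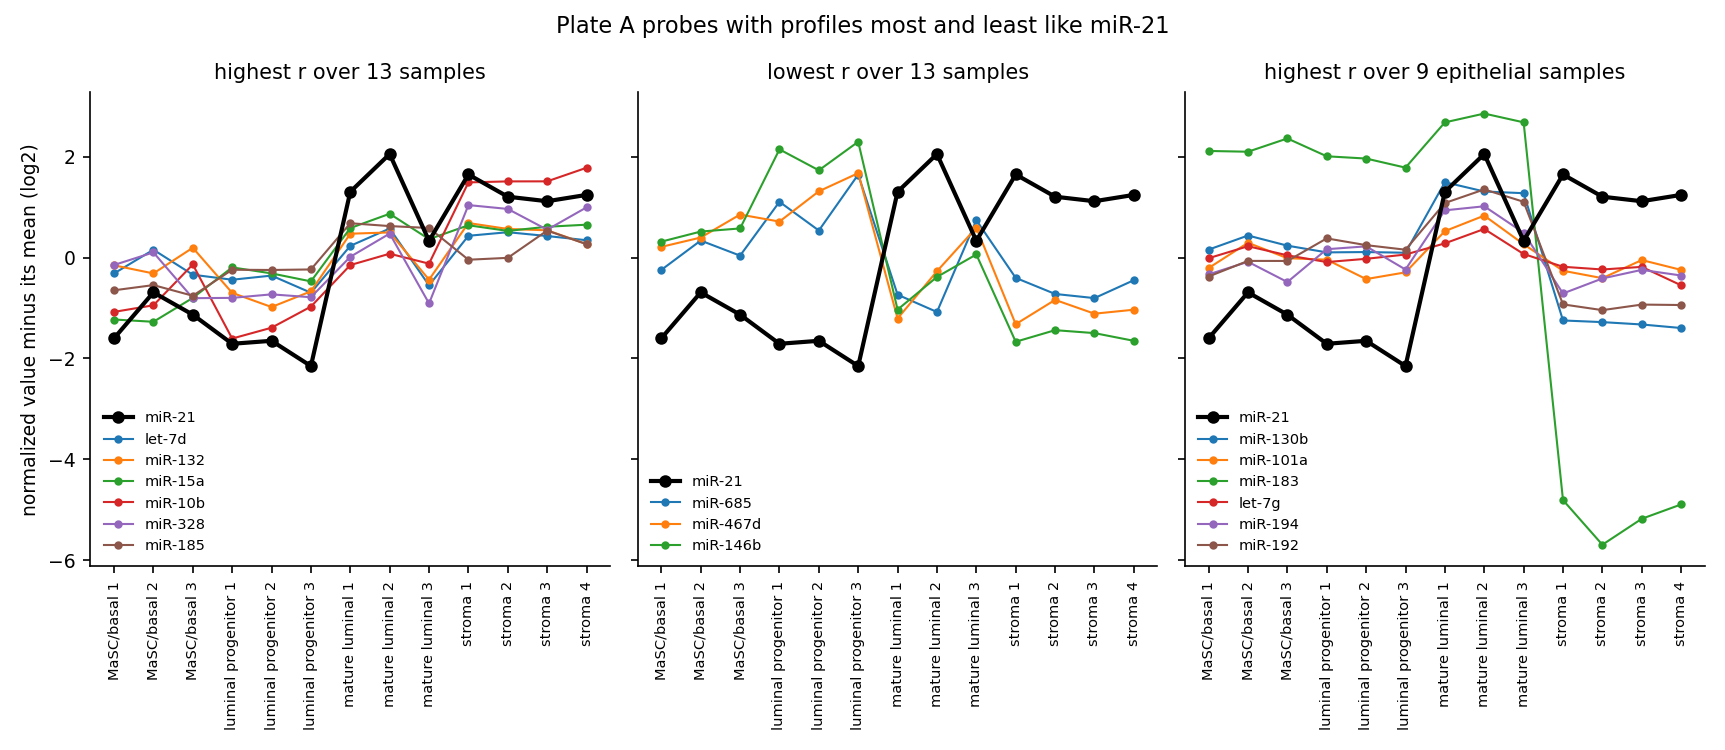
Normalized values (log2) minus their mean over 13 samples for miR-21 (thick black line) and for the probes with the highest and the lowest correlation with it over 13 samples and the highest over 9 epithelial samples, by sample. In the first set every probe lies below its mean in all 3 progenitor samples, as miR-21 does, and in the last set every probe lies above its mean in all 3 mature luminal samples and below it in stroma, where miR-21 is high.

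Other miRNAs with a known role of miR-21 were described by list. Of 11 others known to be raised in tumours, 3 were higher and 1 lower in mature luminal cells than in luminal progenitors, with a median difference of 0.25 beside 0.08 over the plate A probes tested, of which 15.3% were called higher and 10.7% lower. Those higher were miR-10b, miR-155 (1.20, SE 0.30, adjusted p = 0.015), which acts in lymphocytes and inflammation, and miR-221 (0.76, SE 0.23, adjusted p = 0.035), which targets the cell cycle inhibitor Cdkn1b. miR-210, induced by hypoxia, was lower. Of the same 11, 2 were higher and 7 lower in stroma than in the epithelial mean, with a median of -1.54 beside -0.13 over plate A, where 37.7% of probes were higher and 39% lower. The members of the miR-17-92 family, which drive proliferation, were among those lower, with miR-17 at -2.13 and miR-20a at -2.11.

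Of 5 other miRNAs raised in fibrosis, 4 were higher and 1, miR-155, lower in stroma than in the epithelial mean, where 37.7% of plate A probes were higher and 39% lower, with a median of -0.13. Of the 4, miR-34a had a stromal mean of 19.27, above MaSC/basal cells (15.91) but below progenitors (19.74) and mature luminal cells (20.53). The differences of the 3 that are also mesenchymal markers were 6.84 for miR-199a-5p, 8.18 for miR-199a-3p and 8.03 for miR-214, and they set the median of 6.84. miR-21 differed by 1.89 in the same comparison. Of 8 miRNAs lowered in fibrosis, none was higher and 6 were lower in stroma (median -0.77), among them the epithelial miR-200a and miR-200b at -5.72 and -6.25. In mature luminal cells against progenitors 1 of the 5 was higher and 1 lower, as were 1 and 1 of the 8, beside 15.3% and 10.7% of plate A probes.

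Of 7 miRNAs often taken as references for normalization, 2 were higher in mature luminal cells than in progenitors, miR-16 by 1.79 (SE 0.24, adjusted p = 0.00082) and miR-24 by 1.20 (SE 0.29, adjusted p = 0.013), with a median of 0.26, beside 15.3% of plate A probes called higher. The difference of miR-21, 3.07, was larger than that of each. In stroma against epithelium 4 of the 7 were higher and 2 lower, from 1.51 for miR-26a to -0.86 for miR-186, beside 37.7% and 39% of plate A probes.

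Markers of other cells moved with some of these comparisons, and their part in the miR-21 differences was not tested. The 4 skeletal muscle markers (miR-1, miR-133a, miR-133b and miR-206) were all higher in mature luminal cells than in progenitors, beside 10.9% of all 459 probes tested. Their summed level was 18.31 to 18.78 in mature luminal cells against 16.26 to 16.78 in progenitors. The summed level was highest in MaSC/basal cells, at 22.79 to 23.78, where miR-21 was low, and so were miR-1, miR-133a and miR-133b, whereas miR-206, a plate B probe, had means of 14.22 there, 15.69 in mature luminal cells and 15.91 in stroma. Of the endothelial markers miR-126-3p and miR-126-5p, the first was higher in mature luminal cells than in progenitors by 1.00 (SE 0.24, adjusted p = 0.012). Their summed level was 24.10 to 24.78 in mature luminal cells, 23.24 to 23.49 in progenitors, 24.57 to 24.78 in MaSC/basal cells and 23.03 to 23.88 in stroma. The 5 blood cell markers were at 21.17 to 21.50 in both luminal populations and 19.80 to 20.99 in stroma. None of the 5 differed between the luminal populations by the test, which called 26% of plate A probes in either direction. No marker of these lists was undetected throughout any of the 4 populations.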

How the data were processed

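Real-time PCR values of 14 mouse samples were used. The deposited raw values are Ct values, a score from 0 to 40, set by the authors after reverse transcription and pre-amplification, for 597 assay positions. The deposited normalized log2 values were made by the authors with limma as 40.5 minus Ct and cyclic loess (span 0.7, 5 iterations, U6 weighted 100), and a rerun matched them to within 5.3e-14. A further deposited table, holding the log2 differences, mean expression, moderated statistics, p-values and FDR of MaSC/basal against luminal cells, was not used. Columns of other samples numbered 0.

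limma 3.58.1 in R 4.3.3 fitted 4 population means over 13 samples and the 459 probes (300 on plate A) reaching 2 in at least 3 samples, as in the study's methods, with Benjamini-Hochberg adjustment over all probes and a threshold of 0.05. The script was tested on simulated data. The number of samples limits the precision. Summed levels are log2 of summed linear values. The list medians are over probes tested.

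Epithelial samples of the same number share a mouse pool by the labels. Deviations from population means correlated with a median r of 0.37 in 9 pairs of the same pool (8 above 0.1), so pool was also fitted as a block. In 18 other pairs the median was -0.16 (2 above 0.1). Deviations cancel within each population, so a positive value in same-pool pairs forces a negative one in the others, which is no separate evidence.

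miR-21, the lists and the tests were chosen with earlier results of these data known. Named miRNAs are miR-21 and miR-21*, the 5 leading plate A probes and the neighbours of miR-21 in each population, the 6 highest and 3 lowest correlations, plate A controls, and members of the fixed lists and markers; 1 list is not reported here. miR-590-5p, miR-183, the other nearest probes in epithelium and the plate B controls were added after their values were seen. Alternatives were other scalings, filters, sample sets and blocks.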

Additional observations from a re-analysis of the deposited data

How the results depend on the processing

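Of 222 repeats of the tests of miR-21, 213 kept direction and side of the threshold. The differences of mature luminal cells from progenitors (2.66 to 3.80), from MaSC/basal cells (1.93 to 3.16) and from the mean of both (2.31 to 3.48), of stroma from progenitors (1.79 to 4.08), from MaSC/basal cells (1.68 to 3.14) and from epithelium (0.84 to 2.45), and the F-test (22.8 to 64.3), passed under every alternative run. Scaling to snoRNA135, snoRNA202, U87 or Y1, on which the place of stroma moved, was not among these alternatives. Luminal progenitor minus MaSC/basal passed with U6 alone (-1.49, and -0.11 with median centring). Stroma minus mature luminal turned with median centring on plate A (-0.97) and without normalization (-0.0191), and leaving out 1 sample gave -0.38 (without mature luminal 3) to 0.49, with -0.04 without stroma 1. MaSC/basal minus both luminal populations passed with median centring (-1.27, adjusted p = 0.0018), with loess on plate A alone (-0.88, adjusted p = 0.035) and with pool as a random replicate block (-0.84, adjusted p = 0.041, consensus correlation 0.2), was -0.22 with U6 alone, and ranged from -1.06 to -0.61 on leaving out 1 sample. The pool block changed no other call of miR-21 in the fits. With exchange only within pools, chosen after seeing the data, the exact p among epithelial populations rose for the rank from 0.025 to 0.111, for Ct minus U6 Ct from 0.00357 to 0.0278 and for Ct from 0.0179 to 0.0833, and none passed after adjustment (0.13 to 0.167). The mean MaSC/basal rank was 57.75 with all 14 samples and 64 without the library labelled MaSC/basal 4. With all 14 samples fewer probes were called: 45 in place of 101 between the luminal populations, 84 in place of 165 for mature luminal against MaSC/basal, 95 in place of 168 for progenitors against MaSC/basal, 110 in place of 185 for MaSC/basal against both luminal populations and 38 in place of 143 for mature luminal against other epithelium. Between the luminal populations U6 alone called 49 and no normalization 44, and for mature luminal against other epithelium no normalization called 81. Loess on plate A alone tests fewer probes and called 204 to 227 in the comparisons with stroma in place of 353 to 375. Of the calls between the luminal populations 49.5% were higher in mature luminal cells, 34.34% with median centring, 87.76% with U6 alone and 93.18% without normalization. Of those between stroma and epithelium, over both plates, 58.67% were higher in stroma, and 82.0% with U6 alone. On plate A, 113 of the 300 probes tested were called higher in stroma and 117 lower in the deposited values. The causes were not tested.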
